A study of Mus musculus with 6 samples.

Results

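*Runx1*, *Runx2*, *Runx3*, *Sp7*, *Dlx5*, *Alpl*, *Spp1*, *Ibsp*, *Bglap* and *Sparc* encode the RUNX transcription factors and a core set of genes by which bone-forming osteoblasts are recognised. They were taken from the count table by gene name, giving 10 of 43346 genes, and all 10 had a row. RNA was measured in mouse adult fibroblasts (MAFs), primary cells isolated from the ears of adult female C57BL/6 mice, in 3 control and 3 senescent samples. Senescent cells received 20 Gy of X-rays, and control cells a sham irradiation. By the paper's account, weeks of further culture separated the X-rays from the experiments, and no such time is given for the sham. Values called after irradiation are therefore not an early response. Time in culture may differ between the groups, and its part was not tested. Cells of both groups were grown in 3% oxygen, were given 100 nM of the glucocorticoid dexamethasone for 2 hours and were collected 12 hours later, so every value describes cells after a glucocorticoid and at a single time. Nothing states that the replicates of a group came from separate animals or cultures, so the p-values measure the spread between these samples, which may be technical.

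RUNX proteins are transcription factors that bind DNA together with a common partner, CBFB. RUNX2 is required for the formation of osteoblasts. SP7 (osterix) acts downstream of it, and DLX5 is a homeodomain factor that promotes the same lineage. Maturing osteoblasts make alkaline phosphatase (*Alpl*), which frees phosphate for mineral, and load the matrix with osteonectin (*Sparc*), osteopontin (*Spp1*), bone sialoprotein (*Ibsp*) and osteocalcin (*Bglap*). Several of these genes are also active outside bone: RUNX1 is best known from blood formation, RUNX3 from lymphocytes, RUNX2 also from maturing chondrocytes, and osteopontin and osteonectin are secreted by many connective tissue cells.

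The promoters of the RUNX genes are shown because 1 promoter of each gene carried the same paired RUNX letters. RefSeq promoter sequences of mouse build GRCm38.p6, running from 250 bases before to 50 bases after a RefSeq start, were matched for 8 of the 10 genes. *Runx1*, *Runx3*, *Alpl* and *Spp1* had 2 such promoters each, and the one nearest the start of the gene in the count table was searched and is shown. Positions are counted from the RefSeq start, which lay 75 bases inside the gene as the count table places it for *Runx1*, 170 bases inside for *Runx2* and 116 bases inside for *Ibsp*, and at most 7 bases away for the others. The RUNX letters TGTGGT were searched on both strands, where the other strand reads ACCACA, and are printed in capitals, as is the E-box CACGTG of the *Runx1* promoter. No RUNX match overlapped a match to another motif. The windows were chr16:92826025-92826324 on the minus strand, chr17:44814578-44814877 on the minus strand and chr4:135120395-135120694 on the plus strand, and each is printed 5′ to 3′ along its gene.
Runx1: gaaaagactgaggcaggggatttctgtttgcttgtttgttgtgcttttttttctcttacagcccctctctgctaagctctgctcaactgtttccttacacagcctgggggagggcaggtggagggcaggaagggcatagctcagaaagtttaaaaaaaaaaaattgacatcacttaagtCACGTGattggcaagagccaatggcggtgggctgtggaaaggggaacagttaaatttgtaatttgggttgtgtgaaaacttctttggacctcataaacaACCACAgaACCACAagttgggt
Runx2: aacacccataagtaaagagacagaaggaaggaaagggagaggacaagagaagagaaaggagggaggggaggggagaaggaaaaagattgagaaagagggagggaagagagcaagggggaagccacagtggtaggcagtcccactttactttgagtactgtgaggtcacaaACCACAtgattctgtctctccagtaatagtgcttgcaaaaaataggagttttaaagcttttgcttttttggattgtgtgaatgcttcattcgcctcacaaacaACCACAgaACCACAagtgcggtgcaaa
Runx3: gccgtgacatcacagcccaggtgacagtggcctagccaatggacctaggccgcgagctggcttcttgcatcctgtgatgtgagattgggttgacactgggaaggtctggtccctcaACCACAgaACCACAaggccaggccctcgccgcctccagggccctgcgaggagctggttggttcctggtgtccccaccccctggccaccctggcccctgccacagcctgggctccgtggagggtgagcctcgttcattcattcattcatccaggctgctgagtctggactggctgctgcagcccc

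The longest run shared by the 3 RUNX promoters shown was 18 bases, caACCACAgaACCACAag, which holds the RUNX letters 2 times, with first bases 8 apart. Counted from the RefSeq start (base 1), the run began at position 27 in *Runx1*, at 22 in *Runx2* and at -136 in *Runx3*. Paired letters ACCACANNACCACA, on either strand, were present in 7 of 32851 promoters (0.0213%), 3 of which were those of the RUNX genes. The letters and their spacing are those of the shared run, so these 3 were certain to be among the 7. *Runx2* held another match, at positions -80 to -75.

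The promoters of *Spp1* and *Bglap*, the tested genes with the higher level in senescent cells, are shown because each held 1 RUNX match, at position -128 relative to the RefSeq start of *Spp1* and at -132 relative to that of *Bglap*. The windows were chr5:104434861-104435160 on the plus strand and chr3:88384417-88384716 on the minus strand.
Spp1: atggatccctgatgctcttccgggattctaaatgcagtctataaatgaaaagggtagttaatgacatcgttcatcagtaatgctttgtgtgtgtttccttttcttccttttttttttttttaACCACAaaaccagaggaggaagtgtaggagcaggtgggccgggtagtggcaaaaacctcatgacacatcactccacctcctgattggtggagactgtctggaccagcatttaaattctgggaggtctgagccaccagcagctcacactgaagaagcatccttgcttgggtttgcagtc
Bglap: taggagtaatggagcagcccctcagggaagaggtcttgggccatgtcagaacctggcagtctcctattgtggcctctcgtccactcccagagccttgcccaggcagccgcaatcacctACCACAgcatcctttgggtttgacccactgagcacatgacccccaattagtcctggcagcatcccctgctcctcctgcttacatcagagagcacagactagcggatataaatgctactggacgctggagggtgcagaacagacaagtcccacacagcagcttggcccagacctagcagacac

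A RUNX match was present in 6 of the 8 promoters nearest the gene starts, against 16.8% of all promoters of this length. *Sparc* held 1 match, at position 36, and those of *Alpl* and *Ibsp* held none. The other promoters of *Runx1*, *Runx3*, *Alpl* and *Spp1* held 0 RUNX matches. The AP-1 letters TGAGTCA, searched on both strands, occurred in none of the 8 and in 5.2% of all promoters. The homeodomain letters TAATTA occurred in none of the 8 and in 5.29% of all promoters. The E-box was present in 7.15% of all promoters and, among the 8, only in *Runx1*. These matches describe the letters of the windows and not the binding of a factor.

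Libraries held between 50288454 and 82229553 counts. Levels are given as CPM (counts divided by the library total and multiplied up to a common size) scaled by TMM, a factor for each library that lay between 0.968 and 1.03. Replicates of a group differed by more than counting error, and senescent replicate 3 stood apart: its median squared difference from the other senescent replicates was 14.5 and 19.9 times that of chance, against 2.14 between those replicates. Control replicate 1 was apart to a lesser degree, at 4.66 and 4.13 times chance from the other controls, against 1.74 between those. The labels were borne out by *Cdkn1a* (p21), which rose by 2.33 on the log2 scale, *Cdkn2a* (1.90), and the proliferation genes *Mki67* (-5.94) and *Top2a* (-5.20), all with adjusted p under 0.05. The fibroblast genes *Col3a1*, *Pdgfra*, *Vim* and *Thy1* were present in every library, at means of 3896, 485, 4102 and 107 CPM in control cells. Genes that define cartilage were present too, with *Col2a1* at 2717 CPM ± 246 (SD, n = 3) and *Acan* at 1854 ± 40.6 in control cells.

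Senescent cells had less *Alpl*, *Sparc*, *Sp7*, *Dlx5* and *Runx2* RNA and more *Spp1* and *Bglap* RNA than control cells. Of the 9 genes that passed the filter on low counts, 2 rose and 5 fell at an adjusted p under 0.05, where 36.2% of the 17589 genes tested rose and 34.1% fell. *Bglap*, 1 of the 2, passed the filter only through its senescent libraries and so could not have been called lower. One of the thresholds stated in the study, an unadjusted p under 0.05 with more than a 2-fold change, was passed by 4 of the 9 genes and by 30.1% of all genes. The 3 control and the 3 senescent values did not overlap for 8 of the 9 genes, against 75.3% of all genes. The median log2 fold change of the 9 genes was -0.27, against 0.0085 over all genes tested. Because whole cultures were measured, fewer cells of a type and less RNA per cell cannot be told apart. The genes moved in both directions, as did the tested genes as a whole.

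**Figure D1:**
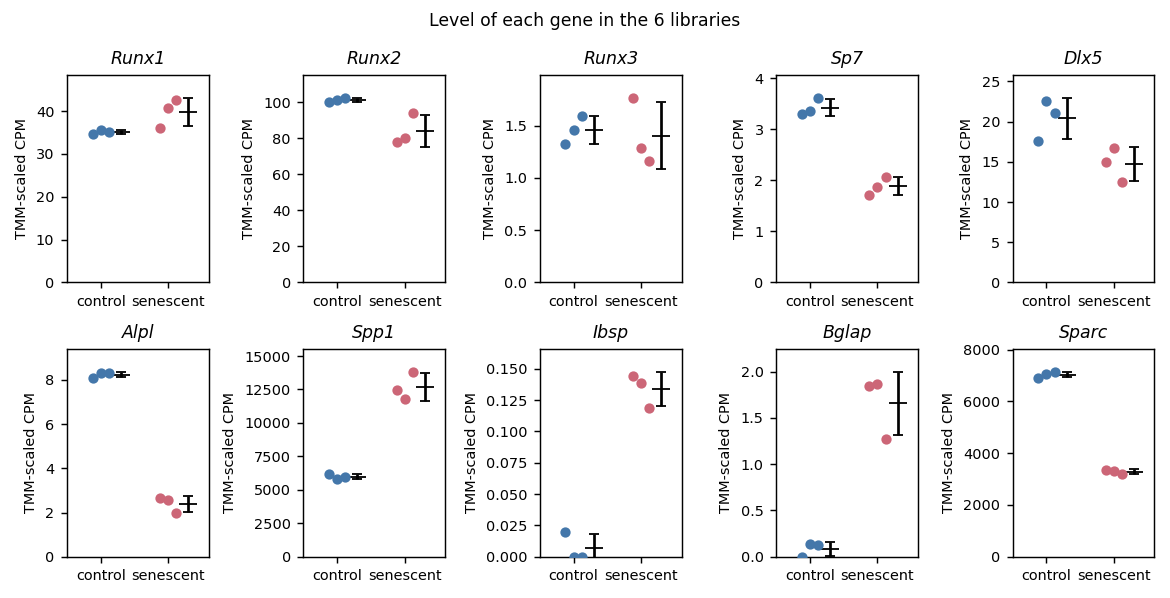
Level of each gene (TMM-scaled CPM, axes from 0) in the 3 control (blue) and 3 senescent (red) libraries, with 1 point per library and the mean ± SD in black. The groups are apart for every gene except *Runx3*, with *Spp1*, *Bglap* and *Ibsp* high in senescent cells and *Sparc*, *Alpl*, *Sp7*, *Dlx5* and *Runx2* high in control cells.

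*Runx2* (chr17:44495987-44814797 in mm10) had the highest level per length of the RUNX genes. Its level was 100.2, 101.6 and 102.6 CPM in the control samples and 78.1, 80.1 and 94.3 CPM in the senescent samples, so that every senescent sample was below every control sample, with replicate 3 closest to the controls. *Runx2* fell by 0.27 on the log2 scale (SE 0.08, 95% interval -0.45 to -0.09, edgeR quasi-likelihood test, adjusted p = 0.0158). The call was lost when library size alone set the scale (adjusted p = 0.0582), without senescent replicate 1 (0.0591) and without senescent replicate 2 (0.0552).

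*Runx1* (chr16:92601466-92826149) stood at 34.5, 35.5 and 35.1 CPM in control cells and at 36.1, 40.6 and 42.6 CPM in senescent cells. The groups did not overlap, but the lowest senescent value was within 1 CPM of the controls, and the difference of 0.18 on the log2 scale (SE 0.07, 95% interval 0.01 to 0.36) had an adjusted p of 0.0572. It passed the threshold under RLE scaling (adjusted p = 0.0380), library size scaling (0.0133), a stricter filter, 10 or more counts per library (0.0217) and DESeq2 (0.0383), and without senescent replicate 1 (0.0182) or 3 (0.0312).

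*Runx3* (chr4:135120652-135177990) was the RUNX gene with the lowest level per length, and stood at 1.32, 1.46 and 1.59 CPM in control cells and 1.77, 1.29 and 1.16 CPM in senescent cells. The groups overlapped, with senescent replicate 1 above and the others below all controls. The log2 difference was -0.07 (SE 0.19, adjusted p = 0.754), and its 95% interval, -0.51 to 0.36, leaves room for a change of either sign.

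Per kilobase of exon, *Runx2* stood at 11.5 CPM in the controls and 9.52 CPM after irradiation, *Runx1* at 2.96 and 3.36, and *Runx3* at 0.291 and 0.281. The order *Runx2*, *Runx1*, *Runx3* was thus kept in both groups. As a share of the summed per-length level of the 3 genes, *Runx2* made up 77.9% ± 0.168 (SD, n = 3) of RUNX RNA in control cells and 72.3% ± 1.24 in senescent cells. *Runx1* made up 20.1% ± 0.184 and 25.6% ± 1.17. For both genes the groups did not overlap, and the exact two-sided permutation test gave p = 0.1, the smallest p that 3 samples against 3 can give. The share of *Runx3* was 1.98% ± 0.159 in control and 2.17% ± 0.656 in senescent cells (exact permutation p = 0.8). The per-length ratio of *Runx1* to *Runx2* went from 0.258 ± 0.00273 to 0.354 ± 0.0217 (exact permutation p = 0.1).

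**Figure D2:**
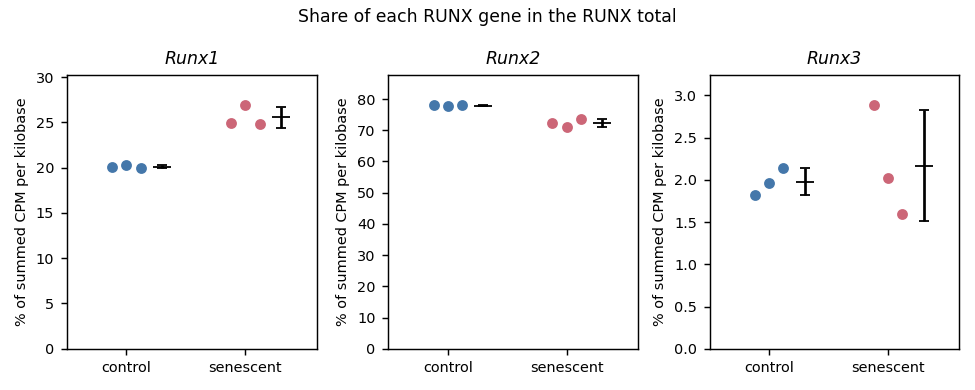
Share of each RUNX gene in the summed CPM per kilobase of *Runx1*, *Runx2* and *Runx3* (percent, axes from 0), 1 point per library with the mean ± SD in black. The *Runx2* share lies near 77.9% in the control samples and between 71.1% and 73.5% in the senescent samples, while the *Runx1* share lies near 20.1% and between 24.9% and 26.9%.

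Other genes overlap the RUNX genes. *Supt3*, a subunit of transcription coactivator complexes, lies partly within *Runx2* on the opposite strand and averaged 13.1 CPM in control against 14.9 CPM in senescent samples, a difference with an adjusted p of 0.0511. The antisense RNAs *Runx2os1* (log2 difference -0.02, adjusted p = 0.932) and *Runx2os2* (0.58, adjusted p = 0.137) stayed below 1.1 CPM in every library, and *Runx2os3* had 0 counts throughout. The kit keeps the strand of the RNA, but the strand setting of the counting is not given in the sources used here, so reads of these genes and of *Runx2* may not be fully separated.

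Over the 6 libraries, the genes whose log2 level followed *Runx2* most closely among 9758 candidates of at least 10 CPM were *Brwd3* (Pearson r = 0.992), *Arl6ip6* (0.992) and *Rmi1* (0.991). Those closest to *Runx1* were *Homer1* (0.960), *Gtf2a1* (0.960) and *Zfp560* (0.957). For *Runx3* they included *Smyd2* (0.975) and *9030617O03Rik* (0.918). These coefficients describe 6 libraries in 2 groups and are the highest of all those computed.

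The partners and regulators of RUNX proteins moved in both directions: of 12 such genes, 6 rose, 5 fell and 1 did not pass the test, with a median log2 fold change of 0.15. Over all genes tested, 36.2% rose and 34.1% fell, which is the background for the counts of this list and of those below. *Cbfb*, the common DNA-binding partner, was at 98.7, 95.3 and 94.7 CPM in the controls and 78.3, 87.1 and 117 CPM after irradiation. Its senescent values lay on both sides of the controls, with replicate 3 the highest (log2 difference -0.03, 95% interval -0.35 to 0.29, adjusted p = 0.854).

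The Groucho-type corepressors, which RUNX proteins recruit through their last residues, split by paralog. *Tle1* rose from 22.2 to 51.6 CPM (log2 1.21 ± 0.06 SE) and *Tle4* from 1.49 to 6.97 CPM (2.23 ± 0.12). *Tle2* fell from 40.3 to 6.88 CPM (-2.55 ± 0.16) and *Tle3* from 79.5 to 39.4 CPM (-1.01 ± 0.10). Of the histone deacetylases that hold RUNX2 back, *Hdac4* rose (0.51 ± 0.09, adjusted p = 0.00112) and *Hdac5* fell (-0.97 ± 0.18, adjusted p = 0.00161). *Twist1* and *Twist2*, whose proteins inhibit RUNX2, differed in sign as well (0.34, adjusted p = 0.00317, and -0.52, adjusted p = 0.00385).

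*Zfp521*, a zinc finger factor that antagonises RUNX2, fell from 187 to 85.9 CPM (-1.12 ± 0.05, adjusted p = 6.32e-07). *Wwtr1* (TAZ), a coactivator of RUNX2, rose from 124 to 259 CPM (1.06 ± 0.06, adjusted p = 3.39e-06). *Smurf1*, a ubiquitin ligase that marks RUNX2 for degradation, rose from 63.4 to 115.5 CPM (0.87 ± 0.07, adjusted p = 1.81e-05). Thus the coactivator and the ligase rose while *Runx2* itself fell.

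*Sp7* (chr15:102356609-102366325) was low, at 3.29, 3.36 and 3.62 CPM in the controls and 1.71, 1.87 and 2.06 CPM after irradiation. All senescent samples were below all control samples. *Sp7* fell by 0.86 on the log2 scale (SE 0.11, 95% interval -1.12 to -0.59, adjusted p = 2.74e-04), to 0.552 of its control level. Its per-length ratio to *Runx2* went from 0.103 ± 0.00405 to 0.0681 ± 0.00249 without overlap (exact permutation p = 0.1), so *Sp7* was lower also relative to *Runx2*.

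*Dlx5* (chr6:6877805-6882085) was at 17.6, 22.6 and 21.1 CPM in the controls and 15.0, 16.7 and 12.5 CPM after irradiation. The highest senescent value was just below the lowest control value. *Dlx5* fell by 0.47 (SE 0.13, 95% interval -0.78 to -0.16, adjusted p = 0.0131), and without control replicate 2 the adjusted p was 0.0558. The per-length ratio of *Sp7* to *Dlx5* was 0.0828 ± 0.00932 in control and 0.0638 ± 0.0145 in senescent cells (exact permutation p = 0.2).

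The other distal-less genes did not share one direction. *Dlx6*, the neighbour of *Dlx5*, fell by 0.49 (adjusted p = 6.48e-04) and *Dlx1* fell by 0.74 (adjusted p = 2.41e-04). *Dlx2* (0.56), *Dlx3* (1.22) and *Dlx4* (0.74) rose, from control levels of 4.58, 0.339 and 0.464 CPM. The noncoding RNA *Dlx6os1* at the same locus was at 7.06 and 7.44 CPM (adjusted p = 0.621).

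Of 8 other transcription factors of the osteoblast lineage, *Dlx3* and *Dlx6* included, 3 rose and 3 fell, with a median of 0.15. *Msx2*, a homeodomain factor of skull and limb, rose from 2.30 to 7.85 CPM (1.77 ± 0.09, adjusted p = 9.91e-07). *Msx1* fell by 0.81 and *Prrx2*, a homeodomain factor of mesenchyme, by 1.06. *Atf4* (0.06, adjusted p = 0.438) and *Prrx1* (0.23, adjusted p = 0.0503) did not pass the test.

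*Alpl* (chr4:137741733-137796384) fell most on the log2 scale among the 9 tested genes. It stood at 8.10, 8.32 and 8.30 CPM in the controls and 2.65, 2.56 and 1.98 CPM after irradiation, with wide space between the groups. *Alpl* fell by 1.79 (SE 0.12, 95% interval -2.08 to -1.50, adjusted p = 6.99e-06), to 0.290 of the control level. The other alkaline phosphatase genes, *Alpi*, *Alppl2* and *Akp3*, were below the filter and did not exceed 0.0541 CPM in any library.

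*Sparc* (chr11:55394500-55420080), a collagen-binding matrix protein, was at 6924, 7055 and 7131 CPM in the controls and 3343, 3331 and 3180 CPM after irradiation. The groups were far apart and each was tight. *Sparc* fell by 1.10 (SE 0.05, 95% interval -1.21 to -0.98, adjusted p = 5.85e-07). Per kilobase it ranked 6 among the tested genes in control cells and 21 in senescent cells.

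*Spp1* (chr5:104435118-104441050) moved the other way. Its level was 6180, 5829 and 5939 CPM in the controls and 12476, 11784 and 13810 CPM after irradiation, so that every senescent sample was far above every control sample. *Spp1* rose by 1.08 (SE 0.07, 95% interval 0.92 to 1.25, adjusted p = 4.41e-06), a 2.12-fold increase. Per kilobase it ranked 3 in control cells and 1 in senescent cells. The per-length ratio of *Spp1* to *Sparc* went from 1.74 ± 0.0746 to 7.91 ± 0.859 (exact permutation p = 0.1, groups without overlap).

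*Bglap* (chr3:88383501-88384464) was close to the limit of detection in control cells, with 0, 8 and 6 counts, and had 102, 148 and 107 counts in senescent cells. That corresponds to 0, 0.134 and 0.123 CPM against 1.84, 1.87 and 1.27 CPM. The gene passed the filter on low counts only through its senescent libraries, so a lower call was not possible. *Bglap* rose by 4.20 (SE 0.47, 95% interval 3.1 to 5.29, adjusted p = 1.06e-04), and the size depends on the few control counts. Even so, senescent *Bglap* was far below *Spp1*, at 2.68 against 7700 CPM per kilobase.

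Mouse osteocalcin has close copies beside *Bglap* on chromosome 3, and reads can be divided among them uncertainly. *Bglap2*, which also encodes osteocalcin, had 7, 7 and 5 counts in control and 262, 423 and 263 in senescent cells, and rose by 5.17 (SE 0.32, adjusted p = 3.7e-06). *Bglap3*, a related gene, had 19, 20 and 24 counts against 28, 21 and 20, with a log2 difference of -0.31 (adjusted p = 0.449). With the counts of all 3 summed, the total was 26, 35 and 35 in control and 392, 592 and 390 in senescent cells (log2 3.39, SE 0.24, adjusted p = 7.67e-06). The sum does not depend on how counted reads were divided among the 3, but reads left out of the counting would be missing from it.

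*Ibsp* (chr5:104299171-104311469) was below the filter, with 1, 0 and 0 counts in control and 8, 11 and 10 in senescent cells. A level of 0 counts allows up to 0.0572 CPM in control cells. The summed rate was 21.0 times as high in senescent cells, with a 95% interval for counting error of 3.48 to 857 that rests on 1 control count. With no filter beyond 1 count in total, the adjusted p was 0.00192. *Ibsp* lies near *Spp1* on chromosome 5 among the genes of a family of acidic, integrin-binding matrix proteins, spanning 270.3 kb. Of the others, *Dmp1* had 7 counts in all control and 61 in all senescent libraries, *Dspp* 0 and 13, and *Mepe* 0 and 9. *Spp1* therefore was the only gene of the 5 with more than 100 counts.

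**Figure D3:**
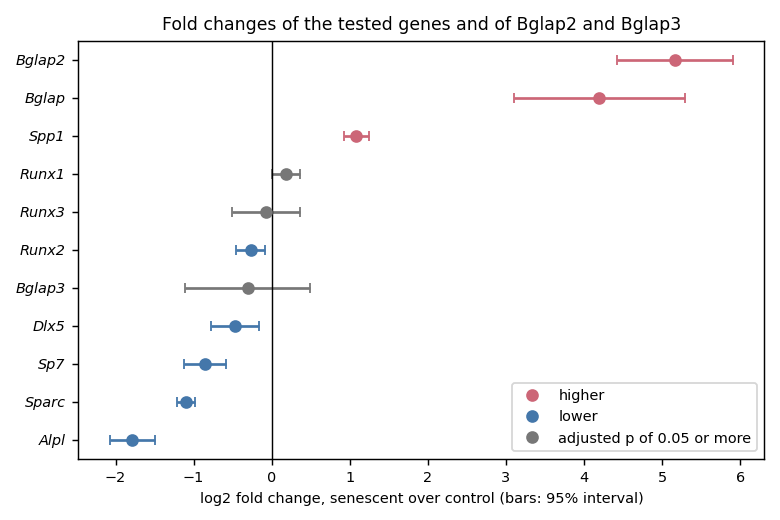
Log2 fold change (senescent over control) of the 9 tested genes and of *Bglap2* and *Bglap3*, with 95% intervals; red is higher, blue is lower and grey has an adjusted p of 0.05 or more. *Bglap* at 4.20 and *Alpl* at -1.79 are the extremes of the 9 genes, and the RUNX genes lie closest to 0.

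Type I collagen, the main protein of bone matrix and of fibroblast matrix, fell. *Col1a1* was at 3853, 4814 and 4638 CPM in the controls and 843, 924 and 523 CPM after irradiation (-2.54 ± 0.21 SE, adjusted p = 1.79e-05), and *Col1a2* fell by 1.87. Among the 21 of 25 listed bone matrix, mineral and osteocyte genes that were tested, 12 rose and 6 fell, with a median of 1.07. Some of the 12, *Bglap2* and *Mmp13* among them, passed the filter on low counts only through the senescent libraries and could not have been called lower. Of all genes tested, 36.2% rose and 34.1% fell. *Mmp13*, a collagenase whose gene is a known RUNX2 target, rose from 0.135 to 16.4 CPM (6.93 ± 0.22, adjusted p = 1.05e-07). *Enpp1*, which makes pyrophosphate, an inhibitor of mineral, rose from 68.0 to 277 CPM (2.03 ± 0.07), and *Ank*, which aids the release of pyrophosphate, from 158 to 487 CPM (1.62 ± 0.06). *Alpl*, whose enzyme breaks pyrophosphate down, fell. The phosphate transporter genes *Slc20a1* (1.72) and *Slc20a2* (1.39) of the same list rose, and a net effect on mineral was not tested.

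The signals by which osteoblasts govern osteoclasts moved in opposite directions. *Tnfsf11* (RANKL), which drives osteoclast formation, was at 29.1, 27.7 and 27.3 CPM in the controls and 10.7, 12.3 and 13.8 CPM after irradiation, and fell by 1.19 (adjusted p = 2.15e-05). *Tnfrsf11b* (osteoprotegerin), its decoy receptor, was at 44.2, 40.1 and 41.7 CPM and 203, 201 and 240 CPM, and rose by 2.36 (adjusted p = 2.39e-07). The parathyroid hormone receptor *Pth1r* fell by 1.56.

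Bone morphogenetic proteins (BMPs) act upstream of *Dlx5*, *Runx2* and *Sp7* in osteoblasts. Of 16 genes of this pathway, 10 rose and 5 fell, with a median of 1.02, where 36.2% of all genes tested rose and 34.1% fell. Some of the 10, *Bmp2* and *Bmp4* among them, passed the filter on low counts only through the senescent libraries. These could not have been called lower, and they raise the median. The ligands *Bmp2*, *Bmp4* and *Bmp6* rose from 0.0808, 0.0627 and 0.435 CPM to 4.81, 2.21 and 4.32 CPM. The secreted BMP antagonist *Grem1* rose from 157 to 2188 CPM (3.81 ± 0.08, adjusted p = 2.26e-08). *Id1* (-0.34), *Id3* (-1.18) and *Smad6* (-1.05), whose transcription BMP signals raise, fell. Of the receptors, *Bmpr1a* (-0.35) fell, while *Bmpr1b* (1.78), *Bmpr2* (1.02) and *Acvr1* (1.02) rose. The 5 lower calls included small changes, and 3 were left without control replicate 1, control replicate 2 or senescent replicate 1.

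All 11 listed receptor genes for osteopontin and related ligands rose, with a median of 1.11, where 36.2% of all genes tested rose. *Cd44* rose from 338 to 1298 CPM (1.94 ± 0.08), *Itgb3* from 10.6 to 45.9 CPM (2.12 ± 0.08), *Itga8* from 11.5 to 37.9 CPM (1.71 ± 0.11) and *Itga4* from 0.339 to 4.08 CPM (3.60 ± 0.18). Of 6 tested relatives of *Sparc*, 4 fell and 2 rose. *Smoc2* (-1.70), *Smoc1* (-1.52), *Fstl1* (-1.15) and *Spock2* (-0.76) fell with *Sparc*, while the low *Sparcl1* (1.30) and *Spock3* (2.19) rose.

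**Figure D4:**
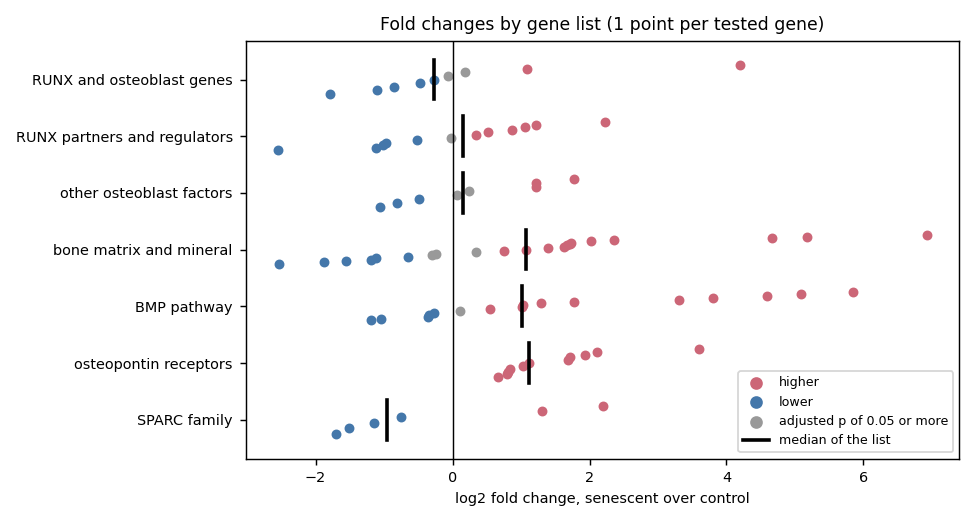
Log2 fold change (senescent over control) of each tested gene of 7 lists, 1 point per gene; red is higher, blue is lower, grey has an adjusted p of 0.05 or more, and the black bar is the median. The osteopontin receptors all lie above 0, and the other lists spread to both sides.

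Markers of other cell types moved with these genes. The summed level of 10 chondrocyte genes was 4862 to 5382 CPM in the controls and 371 to 452 CPM after irradiation. Of the 9 tested, 8 were lower, against 34.1% of all genes tested. Among the 8 were *Acan* (-3.82), *Col9a1* (-5.06), *Matn3* (-5.24) and *Sox9* (-2.08). Chondrocytes are known to express *Runx2*, *Sp7*, *Alpl* and *Sparc* as well, and the part of these cells in the lower values was not tested. The fibroblast genes did not move together: of 10, 4 rose and 5 fell. Their summed level was 17811 to 19901 CPM in the controls and 6717 to 8018 CPM after irradiation, a fall carried by *Col1a1*, *Col1a2*, *Col3a1* and *Vim*, while *Dcn* rose 11.3-fold, *Fap* 15.4-fold, *Thy1* 2.78-fold and *Lum* 1.80-fold. The 5 osteocyte genes, of which 2 passed the filter, summed to 0.870 to 0.942 CPM in the controls and 1.49 to 2.38 CPM after irradiation. Most of this was *Phex*, at means of 0.766 and 1.30 CPM (adjusted p = 0.0398), with senescent replicate 2 (0.833 CPM) close to the highest control (0.820 CPM). Mean *Bglap* levels were 0.0855 and 1.66 CPM, and the part of osteocytes was not tested. Macrophages also make osteopontin, and of the 7 macrophage and osteoclast genes tested, 5 rose and 2 fell. *Lyz2* rose from 0.256 to 4.52 CPM, *Ptprc* from 0.181 to 1.39 CPM and *Csf1r* from 1.99 to 3.91 CPM, beside the higher *Spp1*. The 9 genes of this list with a row summed to 109 to 111 and 95.5 to 107 CPM, most of it *Ctsk*, which fell from 101.1 to 85.1 CPM. *Tyrobp* and *Dcstamp* were at 0 in all control libraries and below 0.03 CPM in all senescent ones. Lymphocyte genes stayed below 0.42 CPM in all. Keratinocyte genes summed to 3.21 to 4.12 and 26.0 to 26.8 CPM, with 3 of 5 tested higher. Most of the senescent sum was *Ivl*, which rose from 0 to 14.0 CPM, and *Dsp*, which rose from 0.110 to 7.09 CPM. The keratin genes *Krt5* (adjusted p = 0.0925) and *Krt10* (adjusted p = 0.965) did not pass the test. *Lyz2*, *Ptprc*, *Ivl* and *Dsp* passed the filter on low counts only with their senescent libraries, which favours a higher call. The part of these lists in the results was not tested.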

How the data were processed

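The deposited table holds raw counts per gene, with gene lengths, which the authors obtained by aligning read pairs with STAR to mm10 and assigning them to genes with Subread (MAPRSeq pipeline). RNA came from 3 control and 3 senescent samples, grouped by their labels. From the counts, genes were kept by filterByExpr (17589 of 43346), scaled by TMM and compared with edgeR's two-sided quasi-likelihood test (edgeR 4.0.16, R 4.3.3; robust, group as the only term), with Benjamini-Hochberg adjustment over all genes tested. A gene with 0 counts may reach 0.0572 CPM (control) or 0.0425 CPM (senescent), the mean over libraries of 3 counts each; without molecular identifiers, intervals and floors cover counting error only. Shares and ratios were compared by exact permutation over libraries. The script for the test was tested on simulated data. How multi-mapping reads were counted is not given in the sources used here.

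The genes and lists were chosen with earlier results of these data known. Named are all 10 genes, their listed RUNX partners, alkaline phosphatase and distal-less relatives, antisense RNAs and label checks. From the other lists, called genes of at least 1 CPM were named, up to 4 per list and direction, with the 3 genes most correlated with each RUNX gene; 2 genes that the rule takes are not reported here. *Bglap2*, *Bglap3*, *Dmp1*, *Dspp*, *Mepe*, *Atf4*, *Prrx1*, *Supt3*, *Fap*, *Lum*, *Lyz2*, *Ptprc*, *Csf1r*, *Ctsk*, *Tyrobp* and *Dcstamp* are not taken by this rule. The same holds for *Bmpr1b*, *Bmpr2*, *Acvr1*, *Slc20a1*, *Slc20a2*, *Phex*, *Ivl*, *Dsp*, *Krt5* and *Krt10*. All of these were picked with their values in view, that is, chosen after seeing them. Alternatives were RLE or library size scaling, other filters, edgeR's exact test, DESeq2 1.42.0, a replicate block and each library left out.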

Additional observations from a re-analysis of the deposited data

How the results depend on the processing

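*Sp7*, *Alpl*, *Spp1* and *Sparc* kept their direction and passed the threshold under each of the 13 alternatives, with log2 fold changes of -0.92 to -0.78, -1.86 to -1.65, 1.03 to 1.16 and -1.11 to -1.02. *Bglap* did so under 12, at 3.66 to 4.72, and was not tested with the filter of 10 or more counts per library. *Runx1*, *Runx2* and *Dlx5* kept their direction, and the alternatives that changed their call are given with them; the cause was not tested. *Runx3*, never past the threshold, was at 0.0076 with library size scaling and between -0.25 and 0.0532 when each library was left out. Of the 9 genes, 3 were higher and 5 lower under RLE scaling and DESeq2, and 3 and 4 under library size scaling. With each library left out, 2 to 3 were higher and 4 to 5 lower, 3 to 5 other osteoblast factors were higher, the 5 without senescent replicate 3, and 3 to 5 BMP pathway genes were lower. With the replicate block, 2 genes were higher and 5 lower as before. Samples with the same replicate number correlated at -0.145, 0.135 and -0.120 between groups, and control 1 with senescent 3 at 0.261. With 3 samples per group, these values cannot decide whether the numbers pair the samples. Low counts limit *Ibsp* and *Bglap*, and 3 samples against 3 cannot give an exact p under 0.1.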
